A study of Mus musculus with 53 samples.

Results

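The polyglutamine diseases are a family of inherited neurodegenerative disorders, each caused by an expanded CAG repeat in the coding part of a different gene. The mouse counterparts of 7 of these genes were examined in brain: Atxn3 (spinocerebellar ataxia type 3, SCA3), Atxn1, Atxn2, Atxn7, Htt (Huntington disease), Atn1 (dentatorubral-pallidoluysian atrophy) and Tbp. They were chosen by gene symbol, and 7 of the 7 were found among the 12372 genes of the count table. RNA sequencing had been performed on brainstem, cerebellum, cortex and striatum of male mice aged 74 to 77 weeks. The wild-type group was 8 C57BL/6 mice. The SCA3 group was 6 MJD84.2 mice, hemizygous for a transgene that holds the complete human ATXN3 gene with a disease-length repeat and is expressed ubiquitously from its own human promoter. Both groups carry the normal mouse copies of all 7 genes. The 53 libraries were 1 per mouse and region, with 8 wild-type and 6 SCA3 libraries in brainstem, 7 and 6 in cerebellum, 7 and 6 in cortex, and 8 and 5 in striatum. The mice were untreated and had been through motor tests earlier in life, and the study reported no motor symptoms in the SCA3 group. Body weight was 28.16 to 34.74 g in SCA3 and 37.21 to 53.61 g in wild-type mice, and its part in the values was not tested.

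In these diseases the repeat is translated into a stretch of glutamines, and the lengthened protein misfolds and gathers in inclusions in neurons. The proteins are otherwise unrelated. Ataxin-3 is a deubiquitinase, an enzyme that trims ubiquitin chains. Ataxin-7 belongs to the deubiquitinase module of the SAGA transcription coactivator, ataxin-1 and atrophin-1 act as transcriptional corepressors, ataxin-2 binds RNA and the poly(A)-binding protein, huntingtin is a large scaffold of vesicle transport, and the TATA-binding protein TBP nucleates transcription initiation as part of TFIID. All are expressed widely in the body, although each disease hits particular neurons.

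To show glutamine codons of these genes at the sequence level, the longest in-frame run of them (CAG or CAA) is given for 6 genes. It was read in the longest annotated coding sequence, from the GENCODE annotation and transcripts of GRCm38. The run was chosen by length alone, and whether it lies at the site of the human disease repeat was not examined. Each line runs 5′ to 3′ on the coding strand, with the run in capitals and 15 flanking coding bases on either side in lower case.
Tbp: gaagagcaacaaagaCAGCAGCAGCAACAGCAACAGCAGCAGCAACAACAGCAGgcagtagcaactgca
Htt: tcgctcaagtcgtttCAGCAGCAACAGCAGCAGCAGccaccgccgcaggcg
Atxn3: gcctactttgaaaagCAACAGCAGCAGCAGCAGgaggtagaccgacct
Atxn7: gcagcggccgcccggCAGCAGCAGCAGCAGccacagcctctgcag
Atxn1: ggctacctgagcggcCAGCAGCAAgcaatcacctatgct
Atxn2: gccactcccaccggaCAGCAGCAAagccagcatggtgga

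The run in Tbp was the longest, with 13 codons (codons 58 to 70, exon 4, chr17:15504391-15504429, plus strand), of which 9 were CAG and 4 CAA. Among the 11731 genes of the table with an annotated coding sequence, 0.384% had a run at least as long. Htt had 7 codons (18 to 24, exon 1 of 67, chr5:34761958-34761978, plus strand), a length reached by 0.98% of genes. The run of Atxn3, the gene whose human counterpart carries the expansion in these mice, had 6 codons, 5 of them CAG (codons 292 to 297 of 354, exon 10 of 11, chr12:101926563-101926580, minus strand), reached by 1.21% of genes. Atxn7 had 5 CAG codons close to its start (25 to 29, chr14:14013156-14013170, plus strand, 1.63% of genes). Atxn1 and Atxn2 had no run longer than 3 codons, Atxn1 at codons 444 to 446 (chr13:45567080-45567088, minus strand) and Atxn2 at codons 1129 to 1131 (chr5:121810946-121810954, plus strand). A run of that length was found in 11.6% of genes, and the median longest run over genes was 2 codons.

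Each library held between 31.7 and 76.7 M counts, with M for mega, and the lowest count of any member in any library was 676 (Tbp). Levels are given as CPM, which is the count brought to the same TMM-normalised library total in each sample. Marker genes set brainstem and cerebellum apart from the other regions, while cortex and striatum overlapped. The summed level of 12 striatal projection neuron markers was 2789 to 11691 CPM in striatum and at most 689 CPM in brainstem and cerebellum, and that of 8 cerebellar neuron markers was at least 7653 CPM in cerebellum and at most 2098 CPM elsewhere. Cortex overlapped striatum in the projection neuron markers (1054 to 5043 CPM). The summed level of 6 cortical glutamatergic neuron markers was 676 to 2264 CPM in cortex (median 1664 in wild-type and 1579 in SCA3 libraries), which overlapped striatum (at most 924 CPM) and cerebellum (at most 722 CPM) and lay above brainstem (at most 573 CPM). Of the brainstem neuron markers 2 were in the table, at 64 to 203 CPM in brainstem and at most 30.1 CPM elsewhere. The striatal dissections varied. Wild-type mice 7267058 and 7267059 had the highest mean log2 CPM of 11 thalamus markers in striatum (7.3 and 7.71, against 3.79 to 5.6 in the other striatal libraries), and the striatal calls of members and of their partner genes are given with and without them. The samples are tissue pieces, in which fewer cells of a type and less RNA per cell cannot be told apart.

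**Figure D1:**
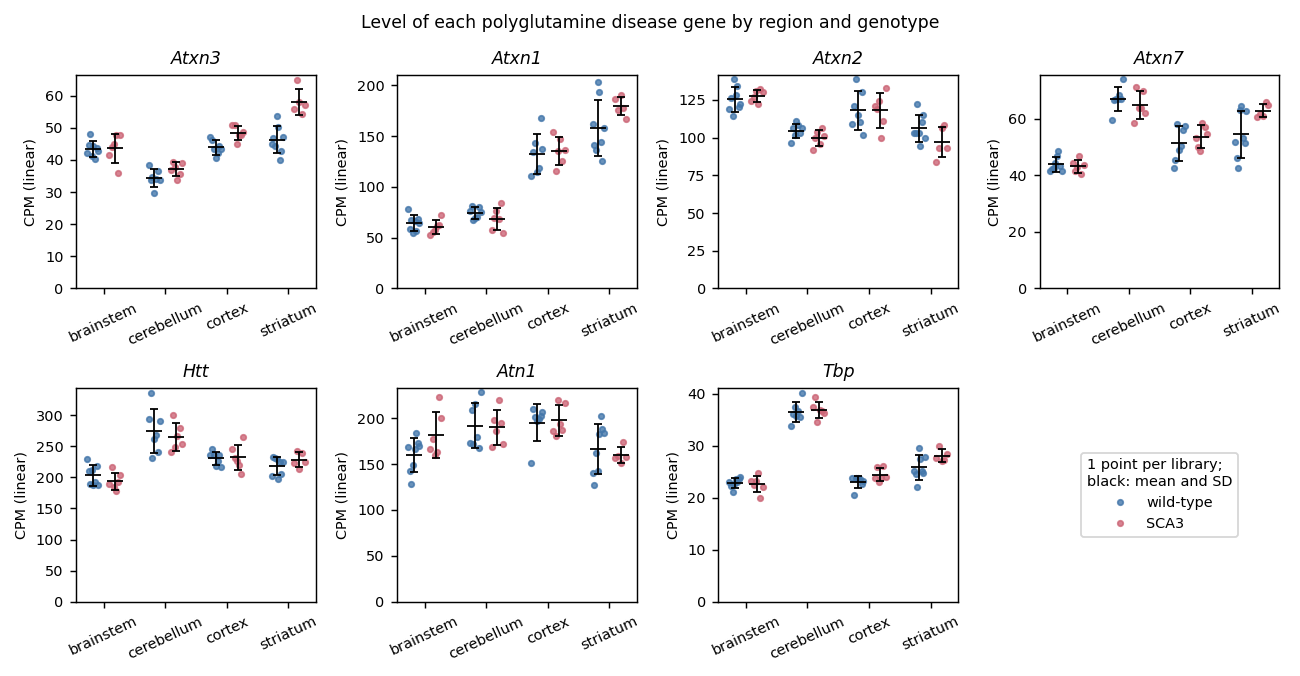
Level of each member in CPM (linear axis from 0), with 1 point per library and the mean and SD of each region and genotype in black. The 5 SCA3 striatal libraries of Atxn3, at 54.3 to 64.8 CPM, sit above the 8 wild-type ones (40.1 to 53.7 CPM), and no other member and region has separate ranges.

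To describe the normal brain first, the 7 genes were compared between regions in wild-type mice. Tbp, Atxn7 and Htt were highest in cerebellum, Atxn1 was highest in striatum and cortex, Atxn3 was lowest in cerebellum, and Atxn2 and Atn1 varied least. Differences between regions were common in these tissues, so the members' counts are read against the share of all genes called (FDR below 0.05, edgeR likelihood ratio test, Benjamini-Hochberg over all genes). Between brainstem and cerebellum 7 of 7 members were called, where 72.6% of all genes were, and 6 with RIN, the RNA integrity number, as a covariate (Atxn1 lost). Between cerebellum and cortex, and between cerebellum and striatum, 6 of 7 were called each time (69.7% and 69.5% of all genes). For cerebellum against striatum 5 were called with RIN as a covariate, and 5 without the 2 striatal libraries highest in thalamus markers (Atn1 lost in each case). Brainstem differed from cortex and from striatum in 4 of 7 members each (65.4% and 64.2% of all genes), and cortex from striatum in 4 of 7 (34.4% of all genes). Without the same 2 libraries the 4 called between brainstem and striatum were the same members. Of the 31 calls over the 6 pairs, 24 were kept in every alternative run and 7 were lost in at least 1. The median absolute log2 difference of the members lay between 0.15 and 0.35 over the 6 pairs of regions, and that of all genes between 0.15 and 0.36.

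Atxn3 had 46.2 ± 4.24 CPM in wild-type striatum (SD, n = 8, lowest 40.1, median 45.9, highest 53.7). It had 43.9 ± 2.19 CPM in cortex (n = 7, 40.7, 43.4 and 47.1), 43.4 ± 2.42 CPM in brainstem (n = 8, 40.4, 43.1 and 48.2) and 34.4 ± 2.77 CPM in cerebellum (n = 7, 29.7, 34 and 38.5). Striatum, cortex and brainstem overlapped broadly, and neighbours in this order did not pass the test (FDR 0.32 for striatum against cortex and 0.84 for cortex against brainstem). Cerebellum stood below all of them, for example below brainstem by 0.34 on the log2 scale (SE 0.06, FDR 4.7e-08). Within single mice the cerebellum was the lowest of the measured regions in 13 of 13 mice that had a cerebellar library, 7 wild-type and 6 SCA3. Atxn3 lies on chromosome 12 (101918901 to 101958246, minus strand) and no other annotated gene overlaps it.

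Atxn1, the corepressor gene, had the widest range of the members. Its wild-type level was 158 ± 27.9 CPM in striatum (SD, n = 8, lowest 125, median 151, highest 203), 132 ± 19.8 in cortex (n = 7, 111, 134 and 168), 74.3 ± 5.48 in cerebellum (n = 7, 67.3, 74.8 and 81.2) and 64.4 ± 7.79 in brainstem (n = 8, 54.8, 65.3 and 78.6). Every cortical and striatal library was above every cerebellar and brainstem one. Striatum exceeded brainstem by 1.29 on the log2 scale (SE 0.09, FDR 9.6e-41) and cortex exceeded cerebellum by 0.83 (SE 0.1, FDR 4.1e-16). The steps at both ends of the order were smaller, 0.25 between striatum and cortex (FDR 0.028) and 0.21 between cerebellum and brainstem (FDR 0.044), and neither was stable. The striatal step lost its call with the wild-type libraries alone and the mouse as a replicate block (0.25, FDR 0.063) and without wild-type mouse 7267055, 9082857 or 9083371 (0.18 to 0.21, FDR 0.087 to 0.17). The cerebellar step lost its call in 3 of 10 other settings, among them RIN as a covariate (0.19, FDR 0.077) and the same blocked fit (0.2, FDR 0.098). It was also lost without 8 of the 14 mice in turn (7267058, 7267059, 9082853, 9082857, 9083372, 9083373, 9083375 and 9083513, 0.19 to 0.21, FDR up to 0.089). Median RIN was 7.3 in wild-type brainstem and 8 in wild-type cerebellum. The highest region was 2.45 times the lowest, a fold larger than that of 81.8% of all genes, whose median was 1.5.

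Tbp was the most cerebellar member. It had 36.4 ± 1.98 CPM in wild-type cerebellum (SD, n = 7, lowest 33.8, median 36.1, highest 40.1), 25.8 ± 2.37 in striatum (n = 8, 22, 25.1 and 29.6), 23 ± 1.19 in cortex (n = 7, 20.5, 23.6 and 23.8) and 22.8 ± 0.916 in brainstem (n = 8, 21, 23 and 23.9). The cerebellar libraries lay above all others, and cerebellum was the highest region in 13 of 13 mice. Cerebellum exceeded striatum by 0.5 on the log2 scale (SE 0.05, FDR 6.6e-22), striatum exceeded cortex by 0.16 (FDR 0.0072), and cortex and brainstem could not be ordered (FDR 0.86). In GENCODE, Pdcd2 overlaps 19% of the exon bases of Tbp on the other strand, and the counting did not use strand. Reads were counted on RefSeq, however, where Tbp ends at 15517427 and not at 15528379 as in GENCODE. Whether the overlap reaches the counted exons of Tbp was not tested.

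Atxn7, the SAGA subunit, was likewise highest in cerebellum, at 67 ± 4.16 CPM (SD, n = 7, lowest 59.6, median 66.9, highest 73.9). It had 54.4 ± 8.2 CPM in striatum (n = 8, 42.5, 52.5 and 64.3), 51.2 ± 6.01 in cortex (n = 7, 42.7, 50.3 and 58.1) and 43.8 ± 2.65 in brainstem (n = 8, 41.4, 42.8 and 48.6). Cerebellum exceeded striatum (log2 difference 0.3, SE 0.07, FDR 4.4e-05), striatum and cortex were not distinguishable (FDR 0.35), and cortex exceeded brainstem (FDR 0.0028). Brainstem was the lowest region in 14 of 14 mice.

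Htt, the huntingtin gene, had 274 ± 35.7 CPM in wild-type cerebellum (SD, n = 7, lowest 231, median 268, highest 336), 231 ± 10.2 in cortex (n = 7, 217, 236 and 245), 218 ± 14.3 in striatum (n = 8, 197, 225 and 232) and 203 ± 16.4 in brainstem (n = 8, 187, 201 and 229). Neighbouring regions overlapped in their ranges. Cerebellum exceeded cortex by 0.25 on the log2 scale (SE 0.07, FDR 0.00039), while cortex against striatum (FDR 0.34) and striatum against brainstem (FDR 0.14) did not pass. Without wild-type mouse 7267055 the last of these passed (0.15, FDR 0.041). Striatum, the region in which Huntington disease strikes first, was below cerebellum in Htt level (log2 difference 0.33, SE 0.06, FDR 8.7e-07).

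Atxn2, which encodes an RNA-binding protein, and Atn1, the atrophin-1 gene, were the flattest members. Atxn2 had 125 ± 8.31 CPM in brainstem (SD, n = 8), 118 ± 13 in cortex (n = 7), 106 ± 8.79 in striatum (n = 8) and 105 ± 4.8 in cerebellum (n = 7). Its only neighbours to pass were cortex and striatum (FDR 0.042), a call lost with RIN as a covariate (0.13, FDR 0.086) and without 7 of the 14 mice in turn (7267055, 7267056, 7267058, 9082853, 9082857, 9083371 and 9083373, 0.1 to 0.16, FDR 0.051 to 0.24). The highest region was 1.2 times the lowest, and 14.8% of all genes had a smaller fold. Atn1 had 195 ± 20.2 CPM in cortex (n = 7), 192 ± 24.6 in cerebellum (n = 7), 166 ± 27.1 in striatum (n = 8) and 160 ± 18.6 in brainstem (n = 8), with a step between cerebellum and striatum (FDR 0.032) and none that passed within either pair (FDR 0.82 and 0.62). The step lost its call in 3 of 10 other settings, among them RIN as a covariate (0.17, FDR 0.066) and the fit without the 2 striatal libraries highest in thalamus markers (0.15, FDR 0.15). It was also lost without wild-type mouse 7267055, 7267058, 7267059, 9082857, 9083371 or 9083375 (0.16 to 0.2, FDR 0.051 to 0.1). GENCODE places a further transcript model, Gm45234, over 84.2% of the exon bases of Atn1, on the same strand. It is not in the count table.

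The differences between cortex and striatum were the least certain. The 4 members called there were Atxn1 and Tbp, higher in striatum, and Atxn2 and Atn1, higher in cortex. With RIN as a covariate 2 were called, Atxn1 and Tbp, and with the wild-type libraries alone and the mouse as a replicate block also 2, Atn1 and Tbp. Without wild-type mouse 9082857 only Tbp was called, and without the 2 striatal libraries highest in thalamus markers the 4 called were Atxn1, Atxn2, Atxn7 and Tbp. Atn1 also lost its call there without wild-type mouse 7267058 (0.17, FDR 0.18). Elsewhere Atxn2 between cerebellum and cortex lost its call without wild-type mouse 9082857 or 9083373 (FDR 0.087 and 0.052), and Atn1 between brainstem and cerebellum without 7267059 (FDR 0.055).

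**Figure D2:**
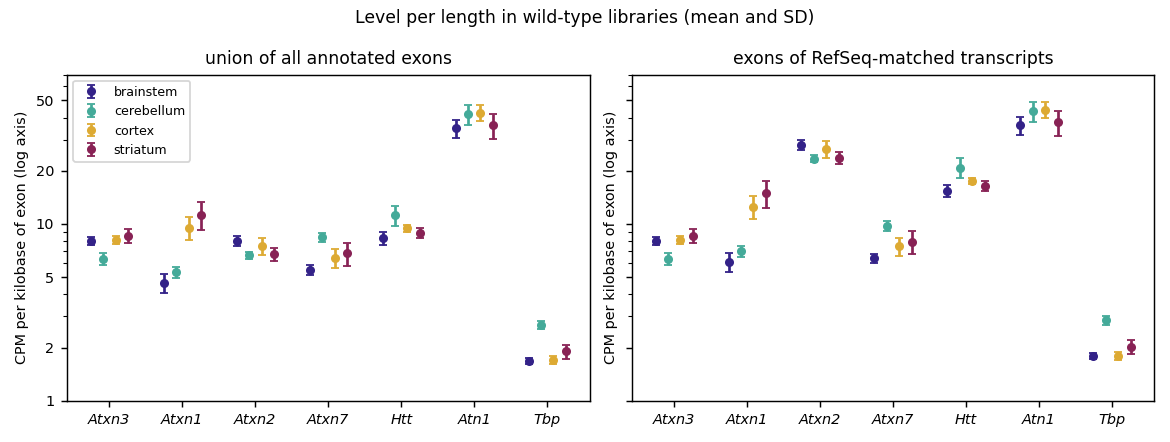
Wild-type level per kilobase of exon for each member and region (mean and SD over 7 or 8 libraries, log axis), with the length taken as the union of all annotated exons on the left and as the exons of transcripts matched to RefSeq on the right. Atn1 is highest and Tbp lowest in both panels, and Atxn2 moves the most between them. Both lengths of Tbp hold the same transcript of 12794 bases.

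Levels of different genes were compared per length only, as CPM per kilobase of the union of annotated exons. On this scale Atn1 was the most abundant member in each region, from 34.8 ± 4.04 in brainstem (SD, n = 8) to 42.5 ± 4.39 CPM per kilobase in cortex (n = 7). Tbp had the lowest values, from 1.68 ± 0.0675 in brainstem to 2.68 ± 0.146 in cerebellum (n = 7). Most of its annotated exon length comes from 1 transcript of 12794 bases, and no shorter length was tried. GENCODE ends Tbp at 15528379, but RefSeq, on which reads were counted, ends it at 15517427. Part of its length can thus lie where no reads were counted for it, and its place among the members is not settled. The other five lay between 4.63 CPM per kilobase (Atxn1 in brainstem) and 11.3 (Atxn1 in striatum). Atxn3 had 8.03 ± 0.448 in brainstem, 8.11 ± 0.405 in cortex, 8.55 ± 0.784 in striatum and 6.37 ± 0.511 in cerebellum, next to Atxn2 in rank in brainstem, cerebellum and cortex. The places in the middle depended on the length chosen. With transcripts matched to RefSeq, an alternative added after seeing the data, Atxn2 (4472 in place of 15689 bases) moved to second place in each region, with 23.4 to 28 CPM per kilobase. Htt (13215 in place of 24438 bases) rose to 15.4 in brainstem and 20.8 in cerebellum, and Atxn3 kept values of 6.37 to 8.56.

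The SCA3 mice were then compared with the wild-type mice in each region. Of the 7 members, Atxn3 was the single gene called, in striatum, where it rose. No member was called in brainstem (1.92% of all genes called), cerebellum (0.0647%) or cortex (0.154%) by the edgeR likelihood ratio test, and 1 was called in striatum (7.54%). At an unadjusted p below 0.05 the members numbered 0, 0, 1 and 3 in brainstem, cerebellum, cortex and striatum, where 13.3%, 1.66%, 4.07% and 23.2% of all genes had such a p. The quasi-likelihood F test, DESeq2 and limma-voom called the same numbers of members, 0, 0, 0 and 1. The test over all 4 regions together called Atxn3 alone among the members (FDR 7.8e-05, 4.73% of all genes called). The test of whether the genotype effect depended on region called none of them (0.218% of all genes called). At an unadjusted p below 0.05 it held 1 member (9.09% of all genes), Atxn3, with an FDR of 0.21, and the 6 other members had FDR values of 0.63 to 0.93.

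In striatum the 5 SCA3 libraries had 54.3, 55.8, 57.2, 58 and 64.8 CPM of Atxn3 (mice 9083514, 7267054, 9083515, 9082853 and 7267056). The 8 wild-type libraries had 40.1 CPM at the lowest, 45.9 at the median and 53.7 at the highest. The ranges did not overlap, and the gap between the nearest libraries, SCA3 mouse 9083514 and wild-type mouse 9082857, was narrow. Such separation of the genotypes was seen in 0.655% of all genes in striatum, in 1.38% in brainstem, 0.234% in cerebellum and 0.251% in cortex, and among the members for Atxn3 in striatum alone. The mean was 58 ± 4.04 against 46.2 ± 4.24 CPM, a fold of 1.25 (95% interval 1.15 to 1.37) or 0.33 on the log2 scale (SE 0.06, FDR 0.00012). This was the 30th smallest p of all genes in striatum. In log2 fold change 4.4% of genes were higher.

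In cortex Atxn3 had 48.4 ± 2.16 CPM in SCA3 (SD, n = 6, lowest 45.1, median 48.2, highest 50.8) and 43.9 ± 2.19 in wild-type libraries (n = 7). Of the SCA3 libraries 5 of 6 lay above the highest wild-type one (47.1 CPM). The log2 fold change of 0.14 (SE 0.06) did not pass after adjustment over all genes (FDR 0.98). In cerebellum the values were 37.1 ± 2.11 (n = 6, 33.9, 37.3 and 39.4) against 34.4 ± 2.77 CPM (n = 7), with 2 of 6 SCA3 libraries above the wild-type range and a log2 fold change of 0.11 (SE 0.06, FDR 1). In brainstem they were 43.6 ± 4.45 (n = 6, 35.9, 44.5 and 47.7) against 43.4 ± 2.42 CPM (n = 8), with every SCA3 library below the wild-type maximum of 48.2. The log2 fold change there was 0.01, with a 95% interval from -0.11 to 0.13. The point estimates thus ran from 0.01 in brainstem to 0.33 in striatum, but the dependence on region did not pass (FDR 0.21). Without wild-type mouse 9082857, which held the highest wild-type striatal value, the same test gave Atxn3 an FDR of 0.038 (263 genes called in place of 27). Without each of the other mice in turn it did not pass. The human ATXN3 transgene is not a row of the count table, which holds mouse genes. In the SCA3 group, reads of human ATXN3 that align to mouse Atxn3, if any, cannot be told apart from reads of the mouse gene.

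**Figure D3:**
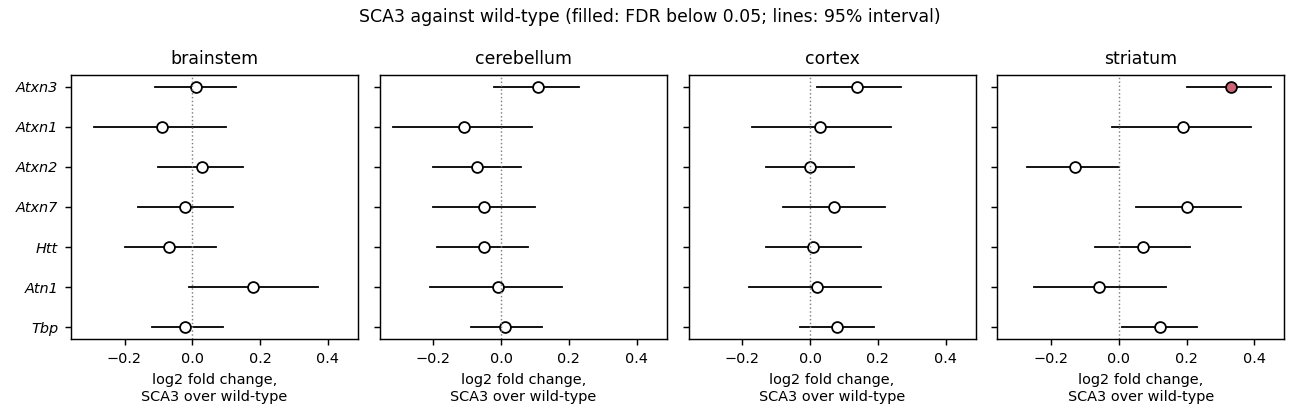
Log2 fold change of SCA3 over wild-type for the 7 members in each region, with 95% intervals from the fit of all libraries. The single filled point is Atxn3 in striatum (0.33, interval 0.2 to 0.45), and the other 27 points have an FDR of 0.05 or above.

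Tissue markers moved with genotype in striatum, and their values are given beside the Atxn3 result. Of 11 thalamus markers 7 were called lower in SCA3 striatum and none higher, and their summed level was 360 to 714 CPM in SCA3 and 370 to 3507 CPM in wild-type libraries. The 12 projection neuron markers were all at positive log2 fold changes (median 0.5) with none called, and summed to 7253 to 10847 CPM in SCA3 and 2789 to 11691 CPM in wild-type libraries. Of 10 mature oligodendrocyte markers 4 were called lower (6070 to 9234 CPM summed in SCA3, 6576 to 19127 in wild-type libraries), and of 9 astrocyte markers 5 (4540 to 5078 and 4435 to 6255 CPM). Of the 8 cerebellar neuron markers, Zic1 and Zic2 were called lower in striatum and 3 had positive estimates, and the summed level was 1512 to 1964 CPM in SCA3 (median 1911) and 866 to 2098 CPM in wild-type libraries (median 1369). Of 9 markers of neurons in general, Syp and Stmn2 were called lower and 4 had positive estimates. The 2 wild-type libraries with the highest thalamus scores had 46.7 and 44.3 CPM of Atxn3, within the range of the other six. The 2 with the highest projection neuron score (9.55 and 9.53, mice 9082857 and 9083371) had 53.7 and 50.2 CPM, the highest wild-type values. Without the 2 libraries highest in thalamus markers the Atxn3 difference was 0.32 (FDR 0.0012). In fits of the striatal libraries alone it was 0.33 (FDR 0.029), 0.3 with the thalamus score as a covariate (FDR 0.057) and 0.26 with the projection neuron score as a covariate (FDR 0.29). The call was lost in these 2 covariate fits, while with the oligodendrocyte score as a covariate it was kept (0.34, FDR 0.019). The estimate was positive in each of them.

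**Figure D4:**
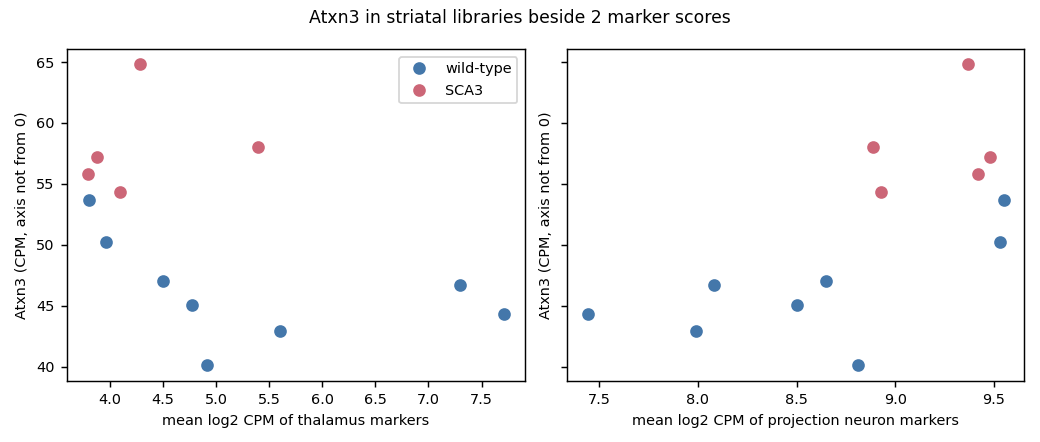
Atxn3 level (CPM) in the 13 striatal libraries against the mean log2 CPM of 11 thalamus markers (left) and of 12 projection neuron markers (right). The 5 SCA3 libraries lie at or above 54.3 CPM, and the wild-type libraries with the highest projection neuron scores, 9.55 and 9.53, come nearest to them at 53.7 and 50.2 CPM.

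Mouse numbers fall into 3 series, and Atxn3 was also compared within them. With the mice of the largest series alone (4 wild-type and 2 SCA3 striatal libraries) the striatal difference was 0.31 (FDR 0.25), and with those of the next largest alone (3 and 2) it was 0.41 (FDR 0.0041). The remaining pair of mice, 1 per genotype, gave no value of its own. RIN was 5.7 to 8.3 in SCA3 and 6 to 9 in wild-type striatum, with a median of 7.7 in both. With RIN as a covariate the difference stayed at 0.33 (FDR 0.00015).

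**Figure D5:**
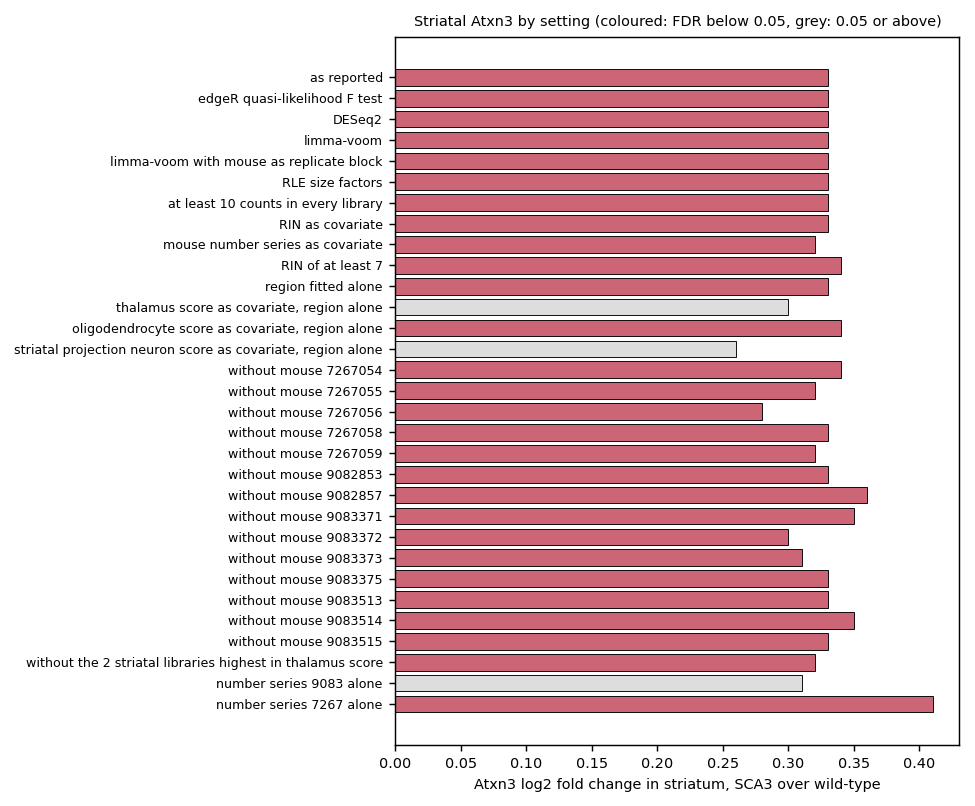
Log2 fold change of Atxn3 in striatum as reported (0.33) and under 30 other settings, as bars from 0 that are coloured where the FDR is below 0.05. The bars run from 0.26 to 0.41, and the 3 grey bars are the thalamus score and projection neuron score covariates and the largest number series alone.

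The other six members were not called in any region. In striatum Atxn7 had 60.7, 60.9, 61.7, 64.8 and 65.8 CPM in the SCA3 libraries (mice 7267054, 9082853, 7267056, 9083515 and 9083514) and 42.5 to 64.3 CPM in the wild-type ones (median 52.5, n = 8). The SCA3 values were packed at the top of a wide wild-type range, with 5 of 5 above the wild-type median and 2 of 5 above the maximum. The log2 fold change was 0.2 (SE 0.08, FDR 0.074). Wild-type mice 7267058 and 7267059 were the 2 lowest (46.1 and 42.5 CPM), and without these 2 libraries the difference was 0.12 (FDR 0.46). It passed with RIN (0.22, FDR 0.043) or the mouse number series (0.22, FDR 0.027) as a covariate, with the second largest number series alone (0.38, FDR 0.015), and without wild-type mouse 9082857 (0.24, FDR 0.022), 9083371 (0.24, FDR 0.02) or 9083375 (0.24, FDR 0.034). In fits of the striatal libraries alone the Atxn7 estimate was 0.21 (FDR 0.38), and it was 0.08 with the thalamus score as a covariate (FDR 0.8), 0.12 with the oligodendrocyte score (FDR 0.7) and 0.06 with the projection neuron score (FDR 1).

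Tbp in striatum was 27.1 to 30 CPM in SCA3 (n = 5, median 27.6) and 22 to 29.6 CPM in wild-type libraries (n = 8, median 25.1), a log2 fold change of 0.12 (SE 0.06, FDR 0.17). Without wild-type mouse 9082857 it was 0.15 and passed (FDR 0.049), and without the 2 striatal libraries highest in thalamus markers it was 0.07 (FDR 0.57). With the thalamus, oligodendrocyte and projection neuron scores as covariates the Tbp estimate was 0.05, 0.07 and 0.02 (FDR 0.9, 0.81 and 1). Atxn1 in striatum was 167 to 190 CPM in SCA3 (n = 5, median 178) and 125 to 203 CPM in wild-type libraries (n = 8, median 151), a log2 fold change of 0.19 (SE 0.11, FDR 0.27). Without the same 2 libraries the Atxn1 estimate was 0.13 (FDR 0.64), and with the 3 scores in the same order 0.09, 0.17 and 0.03 (FDR 0.86, 0.63 and 1). The SCA3 libraries lay inside a wider wild-type range for Atxn1. For Tbp 1 SCA3 library, of mouse 7267056 at 30 CPM, was above the wild-type maximum of 29.6 CPM. In both genes 5 of 5 were above the wild-type median. Atxn2 had a negative estimate in striatum, with 83.9 to 108 CPM in SCA3 and 94.4 to 122 CPM in wild-type libraries and a log2 fold change of -0.13 (SE 0.07, FDR 0.23). With the second largest number series alone that difference was -0.31 and passed (FDR 0.046), and with the largest alone it was -0.06 (FDR 0.93). Without the 2 libraries highest in thalamus markers the Atxn2 estimate was -0.1 (FDR 0.53), and with the thalamus, oligodendrocyte and projection neuron scores as covariates it was -0.07, -0.09 and -0.03 (FDR 0.88, 0.74 and 1).

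Outside striatum the largest estimate was that of Atn1 in brainstem, 182 ± 25 CPM in SCA3 (SD, n = 6) against 160 ± 18.6 (n = 8), a log2 difference of 0.18 (SE 0.1, FDR 0.4). Its SCA3 values ran from 160 to 223 CPM and its wild-type values from 128 to 184. RIN was higher in SCA3 brainstem (7.4 to 8, median 7.9) than in wild-type brainstem (6.3 to 7.6, median 7.3), and with RIN as a covariate the Atn1 difference was 0.11 (FDR 0.79). It was 0.13 with the thalamus score (FDR 0.41) and 0.04 with the oligodendrocyte score (FDR 0.87) as a covariate in brainstem alone, and 0.11 without SCA3 mouse 9083514 (FDR 0.93). Htt, the most counted member, differed by at most 0.07 in size in any region (FDR 0.61 to 1). Its 95% interval was -0.2 to 0.07 in brainstem and -0.07 to 0.21 in striatum. When the brainstem libraries were fitted with the oligodendrocyte score as a covariate, Htt was called lower there (-0.18, FDR 0.034), in a fit that called 1272 genes. The brainstem libraries fitted alone without the score called 392 genes and gave Htt -0.07 (FDR 0.65). Brainstem markers called lower were found among those of oligodendrocytes (2 of 10 called lower, 9435 to 15943 CPM summed in SCA3 and 10346 to 21461 in wild-type libraries), astrocytes (4 of 9 called lower, 3737 to 5253 and 4234 to 8843 CPM) and microglia (1 of 8, P2ry12 at -0.37, FDR 0.042, with 8 of 8 estimates negative, 304 to 381 and 274 to 513 CPM). Beyond the score covariates, the part of these markers in the members' values was not tested. In cerebellum the intervals of the 7 members lay between -0.32 and 0.23 on the log2 scale, and in cortex between -0.18 and 0.27. The median log2 fold change of the members was -0.02, -0.05, 0.03 and 0.12 in brainstem, cerebellum, cortex and striatum, beside a median of 0 over all genes in each region.

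The order of regions within SCA3 mice was the same as in wild-type mice for Atxn3, Atxn1, Atxn7, Htt and Tbp. For Atxn3 the highest region was 1.56 times the lowest in SCA3 and 1.34 times in wild-type mice, and striatum was the highest region in 5 of 5 SCA3 mice and in 4 of 8 wild-type mice with a striatal library. For Atxn2 and Atn1, neighbours that were not distinguishable in wild-type mice changed places.

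Of the polyglutamine disease genes outside the members, values are given for Cacna1a, which encodes the pore of the P/Q-type calcium channel. It had 697 ± 128 CPM in wild-type cerebellum (SD, n = 7) and 197 ± 25.9 in brainstem (n = 8), a log2 difference of 1.82 (SE 0.12, FDR 2.8e-47), wider than between any regions of the 7 members. It was not called between SCA3 and wild-type mice in any region, with log2 fold changes of 0.03 to 0.13 and an SE of 0.13 in each.

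Genes that act with the members were examined as lists. The lists held 104 genes of the count table, counting the polyglutamine disease genes outside the members. By the edgeR likelihood ratio test 1 of the 104 was called in brainstem (1.92% of all genes called), none in cerebellum or cortex, and 4 in striatum (7.54%). Of 12 ataxin-3 partners, 2 were called higher in striatum. They were Ube4b, a ubiquitin chain elongation factor (168 CPM in wild-type, 193 in SCA3, log2 fold change 0.2, SE 0.07, FDR 0.037), and Crebbp, an acetyltransferase coactivator (96.8 and 116 CPM, 0.26, SE 0.09, FDR 0.048). The list had 6 positive and 6 negative log2 fold changes in striatum, with a median of 0. Of 16 huntingtin partners, Optn (optineurin, an autophagy receptor) was lower in striatum (25.8 and 17.7 CPM, -0.54, SE 0.14, FDR 0.0079), Zdhhc13, which encodes a palmitoyltransferase, was higher there (24.9 and 29.2 CPM, 0.23, SE 0.08, FDR 0.046), and Hip1r, an endocytic adaptor gene, was higher in brainstem (103 and 131 CPM, 0.35, SE 0.07, FDR 0.00031). The 4 striatal calls were each lost without the 2 libraries highest in thalamus markers, where the values were 0.15 for Ube4b (FDR 0.25), 0.2 for Crebbp (FDR 0.27), -0.3 for Optn (FDR 0.19) and 0.16 for Zdhhc13 (FDR 0.31). They were also lost with each of the thalamus, oligodendrocyte and projection neuron scores as a covariate, with values of 0.06 to 0.17 for Ube4b, 0.17 to 0.18 for Crebbp, -0.3 to -0.04 for Optn and 0.07 to 0.18 for Zdhhc13, in fits of the striatal libraries alone that also called none of the 4 without a score. Leaving out 1 mouse ended the call of Ube4b for 9 of the 14 mice, of Crebbp for 10, of Zdhhc13 for 10 and of Optn for 4 (7267054, 7267056, 7267059 and 9083515). Crebbp was not called by the quasi-likelihood F test (0.26, FDR 0.055), by limma-voom (FDR 0.062) or by limma-voom with the mouse as a replicate block (FDR 0.07), and with libraries of RIN of at least 7 none of the 4 was called (FDR 0.15 to 0.33). The call of Hip1r was kept without each of the 14 mice and lost with the second largest number series alone (0.29, FDR 0.46).

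No gene was called by the edgeR likelihood ratio test in any region among the 10 sequence relatives of the members (such as Atxn1l, Atxn2l and the Josephin genes Josd1 and Josd2), the 10 ataxin-1 partners, the 8 ataxin-2 partners, the 21 SAGA subunits, the 8 atrophin-1 partners and relatives and the 26 TFIID subunits and TBP partners. In striatum, where 7.54% of all genes were called, the median log2 fold changes of these lists lay between 0.02 and 0.12. The SAGA list had 12 positive and 9 negative values there, and the TFIID list 17 and 9. These lists were put together because none held a called gene, and the ataxin-3 and huntingtin partners are left out. The absence of calls among them was thus fixed by that choice. Together these lists held 76 different genes, and 8, 0, 2 and 21 of them had an unadjusted p below 0.05 in brainstem, cerebellum, cortex and striatum (10.5%, 0%, 2.63% and 27.6%, beside 13.3%, 1.66%, 4.07% and 23.2% of all genes). DESeq2 called 1 of them in brainstem (Taf1) and 1 in striatum (Taf9b), limma-voom called Taf9b in striatum and, with the mouse as a replicate block, Taf1 in brainstem as well, and the quasi-likelihood F test called none. These lists were chosen with earlier results of the data known, so their counts are a description.

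The genes whose level followed that of a member most closely over the 53 libraries were found by the SD of the log2 ratio of their CPM to that of the member. For Atxn3 they were Mzt1 (SD 0.115), Taf9b (0.119), Etnk1 (0.124), Sppl2a (0.126) and Stam2 (0.127), beside a median of 0.376 over all genes. For Atxn1, Myt1l had an SD of 0.202. The closest were for Atxn2 Lrrc59 (0.081) and Hgs (0.0859), for Atxn7 Kmt2e (0.0952) and Asun (0.105), for Htt Ep400 (0.0792) and Whsc1 (0.0891), for Atn1 Zcchc2 (0.118) and Ctu2 (0.122), and for Tbp Hspa14 (0.0889) and Tardbp (0.0895). All points share region, library and genotype, so these values hold differences between regions as well as between mice. Among the members themselves the closest were Atxn7 and Tbp (SD 0.157), with 194 genes closer to Atxn7, and the next was Atxn7 with Htt (0.2).

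The spread between mice of one group set how small a change could be seen. The biological coefficient of variation, the dispersion of the fit as a fraction, was 0.063 for Tbp, lower than in all but 4.8% of genes, 0.0758 for Atxn3 and between 0.0819 and 0.128 for the others. With these values a member's log2 fold change had an SE between 0.05 and 0.11.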

How the data were processed

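RNA from 4 brain regions of 14 mice was sequenced as poly-A selected, unstranded, paired-end libraries. The values deposited by the authors are unnormalised whole-number read counts for 53 libraries. They had cleaned the reads with Sickle and Cutadapt 1.10, aligned them to GRCm38 with STAR 2.3.0e, kept unique alignments and counted RefSeq genes with HTSeq 0.6.1 without strand, so reads of overlapping genes are not separated. Genes averaging above 4 CPM had been kept.

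All 12372 genes were fitted with edgeR 4.0.16 (TMM, 8 groups of region and genotype, likelihood ratio test as in the study's methods, Benjamini-Hochberg over all genes, FDR below 0.05). Fold changes are log2, with SE and a 95% interval of 1.96 SE. The alternatives were edgeR's quasi-likelihood test, DESeq2 1.42.0 and limma-voom (limma 3.58.1) with and without the mouse as a replicate block, scaling by RLE, at least 10 counts in every library, RIN or number series as a covariate, RIN of at least 7 (49 libraries), regions alone, marker scores as covariates and each mouse left out. Fits without the 2 striatal libraries highest in thalamus markers, fits within number series and the RefSeq-matched length were added after seeing the data. Exon lengths and glutamine codon runs came from GENCODE M21 on GRCm38.

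The members and lists were chosen with earlier results of these data known. The named genes were the 7 members, Cacna1a, up to 4 called genes per list with the smallest FDR, and the most alike genes (5 for Atxn3, 2 for each other member). Some items that this rule names are not reported here. The mouse number pairs libraries across regions, since they come from the same animal. Deviations from group means correlated within mice with a mean r of 0.0904 to 0.186 over the 6 pairs of regions. All libraries of a mouse share its genotype, and the regional comparisons of genotype are therefore unpaired. The labels give separate mice, and p-values measure the spread between mice within groups, pooled over the 8 groups and so over all regions. The main fit holds no mouse term, also in the comparisons between regions. Striatum fitted alone called 88 genes in place of 933. The likelihood ratio test then gave Atxn3 a p of 0.00015 in place of 2.9e-07.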

Additional observations from a re-analysis of the deposited data

Results flagged for a closer look

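Among the 56 combinations of member, region and genotype, 2 held a library far from its group by Dixon's test, and chance flags about 1 in 20 groups. In wild-type cortex, mouse 7267055 had 151 CPM of Atn1, while the other 6 libraries had 197 to 210. In wild-type cortex, mouse 7267058 had 20.5 CPM of Tbp, while the other 6 had 22.7 to 23.8. Both are the lowest library of their group.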

How the results depend on the processing

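Of 819 alternative fold changes of the members, 807 kept their side of the threshold and none that was called turned its direction. In 48 an uncalled value changed sign. Of 314 alternative counts of members called, 295 stayed within 1.5 times the count reported. With the thalamus score as a covariate striatal Atxn3 lost its call at 0.3, with the projection neuron score at 0.26 and with the largest number series alone at 0.31, and each left 0 members called in striatum. That series alone also left 0 in the combined test, and the second largest gave 3 in striatum. With RIN or the number series as a covariate, 2 members were called in striatum (Atxn3 and Atxn7). The oligodendrocyte score as a covariate gave 1 in brainstem (Htt). For wild-type cortex against striatum, the count fell from 4 to 2 with RIN as a covariate, with the wild-type libraries alone and with the mouse as a replicate block in these. Leaving out each mouse moved it between 1 and 4, the striatal count of genotype between 1 and 3 and the count for region dependence between 0 and 1, and the cause was not tested. Leaving out a mouse gave striatal Atxn3 values of 0.28 to 0.36, all called. In the fit with the mouse as a random replicate block, limma-voom gave striatal Atxn3 0.33 (FDR 0.001), and the block changed no call of a member between genotypes. The level per length of Atxn2 rose to 16.4 with the longest transcript and 25.4 with RefSeq-matched ones, and that of Htt to 17.4 with either. The lowest count of a member in any library was 676.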
